A study of Mus musculus with 16 samples.

Results

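Expression of 10 LIM homeobox genes, Lhx1, Lhx2, Lhx3, Lhx4, Lhx5, Lhx6, Lhx8, Lhx9, Lmx1a and Lmx1b, was followed in rhabdoid tumors of the mouse, a malignancy that forms after loss of the chromatin remodelling subunit Smarcb1. The genes were taken by symbol, and all 10 were found among the 24982 genes of the deposited count table and the 24951 genes of the deposited TPM table. TPM, a share of all transcripts in a library, is a level corrected for transcript length, so that levels can be compared between genes. The 16 tumors each came from a different mouse, and every mouse carried Smarcb1flox/flox;R26-CreERT2, floxed copies of Smarcb1 with a tamoxifen-inducible Cre recombinase expressed from the Rosa26 locus in all tissues, so that no cell type was targeted. The 5 tumors labelled intra-CNS (mice 29048, 38594A, 29050A, R26P98 and R26P87) had all been induced by tamoxifen at embryonic day E6 and were taken at 30 to 180 days of age. The 6 tumors inside the skull but outside the central nervous system, here intracranial extra-CNS (43989C, 43992A, 29941C, 29225D, R26P170 and R26P115), were induced at E8, except 29225D at E7 and R26P170 at E6, and were taken at 52 to 170 days. The 5 extracranial tumors (43825B of the back, 43987A and R26P123 of the jaw, 43990A of the nose and 43998A of the mouth) were induced at E8, except 43825B at E6, and were taken at 80 to 210 days. In the study's terms the intra-CNS tumors are its Shh subgroup and the 11 extra-CNS tumors its Myc subgroup, a division taken from clustering of tumor expression profiles. Site, subgroup and most of the difference in induction day therefore cannot be told apart. Tissue of healthy mice was not analysed here.

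LIM homeobox proteins carry a pair of LIM zinc fingers, which bind partner proteins, and a homeodomain, which binds DNA. The LIM domains are joined into larger complexes by the adaptor Ldb1, and LIM-only proteins of the Lmo group, which lack a homeodomain, occupy the same adaptor. In development the family labels territories and neuron types in combination: Lhx6 and Lhx8 the ventral forebrain and, outside the brain, the mesenchyme of the jaws and teeth, Lhx2 and Lhx9 the dorsal forebrain and the eye, Lhx1 and Lhx5 inhibitory neurons, Lhx3 and Lhx4 the pituitary and motor neurons, and Lmx1a and Lmx1b the roof plate and the dopamine neurons of the midbrain.

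The total count per tumor lay between 17889968 and 110177889, so that a count of 3, taken as the floor of detection, stood for 0.0272 to 0.168 CPM, the count scaled to library size without correction for length. The pieces were bulk tissue, in which fewer cells of a type and less RNA per cell cannot be told apart. Several libraries stood apart in markers of other tissue. R26P115 held 204447 TPM over 5 choroid plexus markers (199516 TPM of it Ttr), against at most 9.19 TPM in the other extra-CNS tumors. Pituitary markers summed to 333 TPM in R26P170, 424 TPM in 43989C and 93.5 TPM in R26P115, where 88.0 TPM was Lhb alone and Cga and Tshb were at 0, against at most 16.7 TPM in the other 13 tumors. Tumor 29048 had the highest sums of oligodendrocyte (6295 TPM), astrocyte (2157 TPM) and mature neuron markers (3160 TPM), and 4640 TPM of choroid plexus markers. R26P123 held 1827 TPM over 5 epidermal markers and 605 TPM over 5 skeletal muscle markers, against at most 39.9 and 135 TPM in the other tumors. Macrophage and microglia markers summed to 467 to 793 TPM in intra-CNS and 467 to 5568 TPM in extra-CNS tumors (median 1916), and astrocyte markers to 57.1 to 2157 TPM and 2.87 to 244 TPM. Beside several results the value without one or more of these libraries is given.

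The tumors differed in which LIM homeobox genes they expressed, and in 10 of the 11 tumors outside the brain one gene made up most of the summed level. The summed TPM of the 10 genes ran from 15.0 to 77.4 TPM in intra-CNS tumors (median 27.7), from 49.8 to 194 TPM in intracranial extra-CNS tumors (median 63.0) and from 3.68 to 267 TPM in extracranial tumors (median 78.8). Between 3 and 6 of the genes reached 1 TPM in intra-CNS tumors and between 1 and 5 did in extra-CNS tumors. The leading gene took 26.5% to 55.6% of the sum in the intra-CNS tumors and 39.9% to 99.2% in the extra-CNS tumors. It was Lhx9 in 29048 and 38594A, Lmx1a in 29050A, Lhx2 in R26P98 and Lhx5 in R26P87, so that 4 different genes led in 5 brain tumors. Among the 11 extra-CNS tumors Lhx8 led in 7. The other 4 were led by Lhx6 (29225D), Lhx9 (29941C, at 19.8 TPM beside 19.4 TPM of Lhx8), Lmx1a (R26P115) and Lhx4 (43990A).

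**Figure D1:**
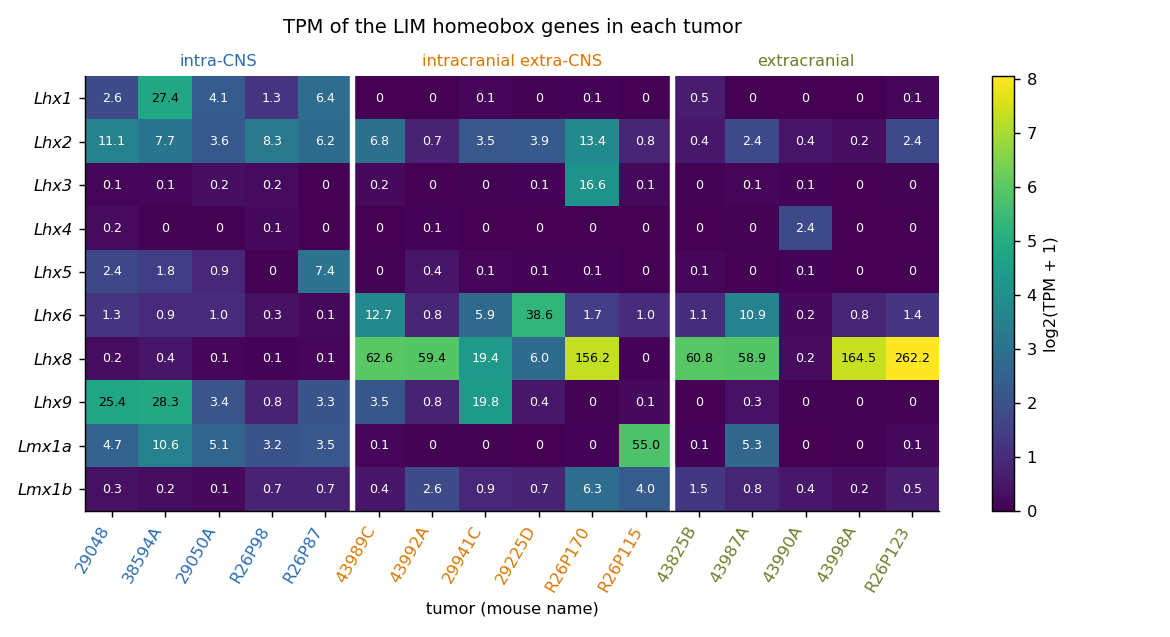
TPM of the 10 LIM homeobox genes (rows) in the 16 tumors (columns, named by mouse and grouped by site); colour is log2(TPM + 1) and the printed values are TPM, with values under 0.05 shown as 0. Lhx8 lies above 6 TPM in 9 of 11 extra-CNS tumors and below 0.5 TPM in the 5 intra-CNS tumors, while Lhx1 and Lmx1a are above 1 TPM in each intra-CNS tumor.

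**Figure D2:**
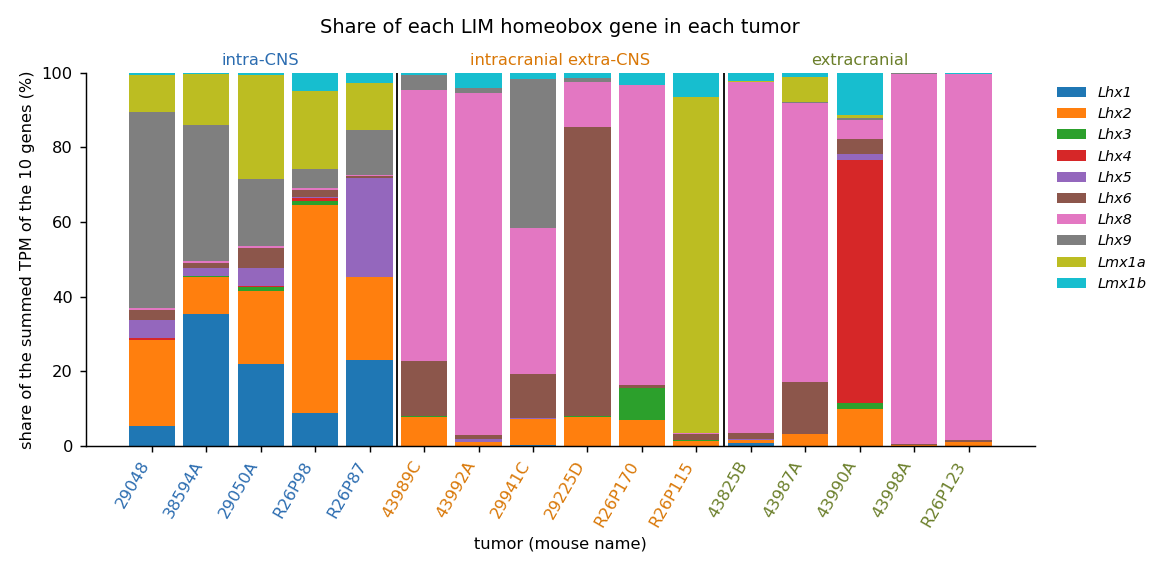
Share of the summed TPM of the 10 genes that each gene takes (stacked bars, %) in each tumor, grouped by site. In the intra-CNS tumors no gene exceeds 55.6% of the sum, and in 43998A and R26P123 Lhx8 alone takes 99.2% and 98.3%.

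The first comparison set the 5 intra-CNS tumors against the 11 extra-CNS tumors and asked which LIM homeobox genes follow the site. A gene was past the threshold at an adjusted p under 0.05 (edgeR, Benjamini-Hochberg over all genes) and a log2 fold change above 1 in size, that is more than 2-fold. Of the 10 genes, 5 passed. Lhx1 and Lhx5 were higher in intra-CNS tumors (2 of 10, against 12.9% of the 21854 genes tested). Lhx8, Lhx6 and Lmx1b were lower there (3 of 10, against 13.1%). Lhx2, Lhx3, Lhx4, Lhx9 and Lmx1a did not pass. The TPM of the groups did not overlap for 1 of the 10 genes, Lhx1, as for 15.3% of all genes. The median log2 fold change over all genes was -0.15, and each mouse gave 1 tumor, so that the spread tested is between animals.

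**Figure D3:**
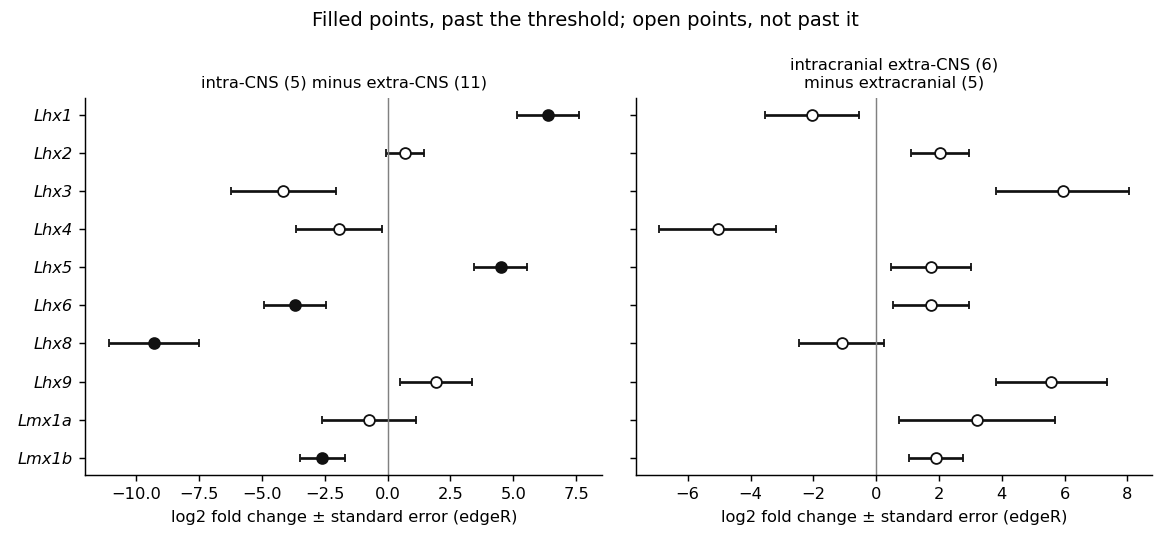
Log2 fold changes of the 10 genes with their standard errors (edgeR), for intra-CNS minus extra-CNS tumors (left) and intracranial extra-CNS minus extracranial tumors (right); the axes differ in scale, and filled points are past the threshold. On the left Lhx1 and Lhx5 lie above 0 and Lhx6, Lhx8 and Lmx1b below it as filled points, and on the right each point is open.

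Lhx8, which in the embryo is needed for cholinergic neurons of the ventral forebrain and for the palate and teeth, had the highest level and the largest difference of the 10 genes. Its gene spans chr3:154306294-154330659 on the minus strand of GRCm38. In the intra-CNS tumors its TPM was 0.215 in 29048, 0.407 in 38594A, 0.0789 in 29050A, 0.0561 in R26P98 and 0.112 in R26P87, from 1 to 10 counts. All brain tumors were thus close to the floor. Among the intracranial extra-CNS tumors Lhx8 ran from 0.0460 TPM (R26P115, 1 count) over a median of 39.4 to 156 TPM (R26P170). In the extracranial tumors it was 60.8 TPM in 43825B, 58.9 in 43987A, 0.185 in 43990A, 164 in 43998A and 262 in R26P123. R26P115 and 43990A overlapped with the brain tumors, and the other 9 lay between 6.02 and 262 TPM. The means were 0.174 ± 0.144 TPM (SD, n = 5) in intra-CNS and 77.3 ± 83.4 TPM (SD, n = 11) in extra-CNS tumors. The log2 fold change was -9.29 (standard error 1.80, edgeR adjusted p = 0.000995). It was -9.82 among tumors induced at E6 alone, where 43825B and R26P170 are the extra-CNS tumors (edgeR adjusted p = 0.000793), and -9.37 without R26P115, R26P170 and 29048 (edgeR adjusted p = 0.00132). Among the 5 R26P mice it was -11.07 and not past the threshold (edgeR adjusted p = 0.247), where no gene at all was called. Without R26P123, which had the highest Lhx8, it was -8.92 (edgeR adjusted p = 0.00141). Macrophage and microglia markers were also higher in most extra-CNS tumors: their sum was lowest there in R26P115 (467 TPM), whose Lhx8 was at the floor, but 2711 TPM in 43990A, whose Lhx8 was near it. The part of these cells, or of muscle and epidermis, in the differences of Lhx8, Lhx6 and Lmx1b was not tested. Of 5 cartilage and tooth markers Col2a1 made up most of the sum in brain tumors, and the tooth markers Amelx and Ambn had at most 0.0833 and 0.417 TPM in any tumor.

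The gene whose pattern was most like that of Lhx8 was its neighbour. Of the 14803 genes whose mean count reached 50, AI606473 had the highest Pearson correlation of log2(TPM + 1) with Lhx8, at 0.99 over the 16 tumors and 0.99 over the 11 extra-CNS tumors. These correlations are descriptions over libraries that differ in depth and site. In the GENCODE annotation AI606473 is a processed transcript at chr3:154330821-154334254 on the plus strand. By that annotation the 2 genes start 162 bases apart and run away from each other. Its TPM was 0 in 29048, R26P98 and R26P87, 0.0744 in 38594A and 0.0360 in 29050A. In extra-CNS tumors it ran from 0 to 61.3 TPM with a median of 14.1, and both tumors with Lhx8 near the floor, R26P115 and 43990A, had a count of 0. Since AI606473 was chosen for its likeness to Lhx8 over these tumors, its levels are a description and no test is given. The 2 gene models do not overlap, but whether the counting used the strand of the reads was not given in the sources used here. A similar arrangement exists at Lhx1, where the noncoding RNA gene Lhx1os starts 125 bases from Lhx1 on the other strand. The bases between the start sites of each pair are shown, since they hold what lies between the starts of 2 genes with like levels in these tumors. They are printed 5′ to 3′ on the minus strand, the strand of the LIM homeobox gene, from RefSeq windows of GRCm38.p6, with each CG dinucleotide in capitals. Each begins beside the start of the partner and ends beside that of the LIM homeobox gene, and they cover chr3:154330660-154330820 for Lhx8 and chr11:84525536-84525659 for Lhx1.
AI606473 to Lhx8: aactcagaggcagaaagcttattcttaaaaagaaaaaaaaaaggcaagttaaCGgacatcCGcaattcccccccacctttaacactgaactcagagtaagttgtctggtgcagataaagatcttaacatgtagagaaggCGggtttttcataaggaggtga
Lhx1os to Lhx1: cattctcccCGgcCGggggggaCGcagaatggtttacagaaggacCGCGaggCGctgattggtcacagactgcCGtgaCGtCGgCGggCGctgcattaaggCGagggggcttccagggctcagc
The stretch of 161 bases at Lhx8 holds 3 CG and has a GC content of 40.4%, and the stretch of 124 bases at Lhx1 holds 12 CG and has a GC content of 66.1%. In RefSeq windows of 240 bases near the start, Lhx8 has 4 CG (chr3:154330571-154330810) and Lhx1 has 26 CG (chr11:84525545-84525784). The window of Lhx8 is the same as that of AI606473 and reaches into the GENCODE model of Lhx8. At least as many are found in 60.9% of the 32851 RefSeq windows of that length for Lhx8 and in 8.4% for Lhx1, and the median is 5. Of the other members, Lhx2 has 24 and Lhx9 has 3 CG. RefSeq windows were matched for 9 of the 10 genes, all but Lhx5. The letters TAATTA, a core that homeodomains bind and that reads the same on both strands, are in none of the windows of these 9 genes and in 4.77% of all windows.

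**Figure D4:**
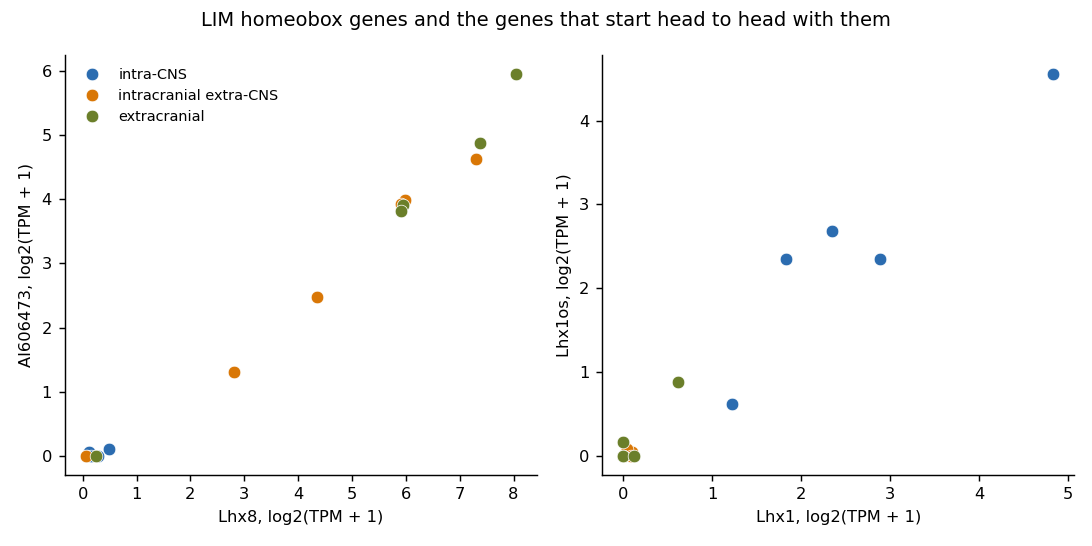
Level of AI606473 against Lhx8 (left) and of Lhx1os against Lhx1 (right), each as log2(TPM + 1), 1 point per tumor coloured by site. The 9 extra-CNS tumors with Lhx8 lie on a rising line while the brain tumors, R26P115 and 43990A sit near 0, and on the right 38594A has the highest level of both genes.

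Lhx6, which keeps interneurons of the medial ganglionic eminence on course and is also made in oral mesenchyme, was higher in extra-CNS tumors, in a call that several alternatives lost. Its gene spans chr2:36081953-36105408 on the minus strand. In the intra-CNS tumors the TPM of Lhx6 was 1.33 in 29048, 0.925 in 38594A, 0.998 in 29050A, 0.289 in R26P98 and 0.116 in R26P87. It ran from 0.776 (43992A) over a median of 3.82 to 38.6 TPM (29225D) in the intracranial extra-CNS tumors. In the extracranial tumors it was 1.09 TPM in 43825B, 10.9 in 43987A, 0.152 in 43990A, 0.792 in 43998A and 1.39 in R26P123. High levels were thus held by 29225D, 43989C (12.7 TPM), 43987A and 29941C (5.91 TPM), and the other 7 extra-CNS tumors lay within or just above the range of the brain tumors. For Lhx6 the log2 fold change came to -3.68 (standard error 1.23, edgeR adjusted p = 0.0304). The call was lost when any of 38594A, 29050A, R26P98 or R26P87 was left out (edgeR adjusted p from 0.0573 to 0.0696), among tumors induced at E6 (log2 fold change -1.54, edgeR adjusted p = 0.252) and against the extracranial tumors alone (-2.50, edgeR adjusted p = 0.105). It was lost too among the numbered mice (-3.59, edgeR adjusted p = 0.102), among the R26P mice (-3.32, edgeR adjusted p = 0.229) and by limma on log2(TPM + 1) (-1.27, limma adjusted p = 0.176) and log2(TPM + 0.1) (-1.90, limma adjusted p = 0.140). It was kept without 43989C (-3.62, edgeR adjusted p = 0.0399). Both genes of the pair reached 1 TPM in 7 of the 11 extra-CNS tumors and in none of the brain tumors. Lhx8 was the higher of the pair in 9 of the 11, Lhx6 in 29225D and R26P115, and Lhx6 was the higher in each of the 5 brain tumors.

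Lhx1, which acts in head formation and later marks inhibitory neurons such as Purkinje cells, was on in each brain tumor and close to the floor elsewhere. Its gene spans chr11:84518284-84525535 on the minus strand. Its TPM was 2.56 in 29048, 27.4 in 38594A, 4.07 in 29050A, 1.33 in R26P98 and 6.39 in R26P87. In the extracranial tumors it was 0.530 in 43825B (21 counts), 0.0855 in R26P123 and 0 in the other 3, and in the intracranial extra-CNS tumors it ran from 0 over a median of 0.0132 to 0.0700 TPM. The lowest brain tumor was thus above the highest tumor outside the brain, and 8 of the 11 extra-CNS tumors had 3 counts or fewer. The log2 fold change was 6.38 (standard error 1.22, edgeR adjusted p = 0.000899). It was 4.23 and no longer past the threshold among tumors induced at E6, where 43825B is one of only 2 extra-CNS tumors (edgeR adjusted p = 0.111), and 5.72 among the R26P mice (edgeR adjusted p = 0.211). The partner Lhx1os (chr11:84525660-84535831), named after its values had been seen, had 4.08, 22.6, 5.44, 0.533 and 4.08 TPM in 29048, 38594A, 29050A, R26P98 and R26P87 and at most 0.840 TPM elsewhere (43825B). Its correlation with Lhx1 over the 16 tumors was 0.98, given as a description.

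Lhx5, a close paralog of Lhx1 that is made in the forebrain, the hindbrain and in inhibitory neurons of the spinal cord, was also higher in brain tumors. Its gene spans chr5:120431699-120441223 on the plus strand. The TPM of Lhx5 was 2.36 in 29048, 1.80 in 38594A, 0.884 in 29050A, 0.0405 in R26P98 and 7.36 in R26P87. Extra-CNS tumors ran from 0 over a median of 0.0533 to 0.376 TPM (43992A, 9 counts). R26P98, with 1 count, was the only brain tumor within the range of the others. For Lhx5 the log2 fold change came to 4.50 (standard error 1.06, edgeR adjusted p = 0.00388). As for Lhx1, the call was lost among tumors induced at E6 (4.24, edgeR adjusted p = 0.147) and among R26P mice (6.75, edgeR adjusted p = 0.272). Lhx1 was the higher of the pair in 4 brain tumors and Lhx5 in R26P87. Mature neuron markers had a higher median sum in brain tumors. It was 426 TPM (78.3 to 3160) in intra-CNS and 48.7 TPM (8.56 to 256) in extra-CNS tumors. All 5 markers were at 1 TPM or more in each brain tumor. The highest sum was in 29048, where among the brain tumors Lhx1 was second lowest and Lhx5 second highest. The next was in 38594A (977 TPM), where Lhx1 was highest. In R26P87, where Lhx5 was highest, the sum was 169 TPM, within the range of the extra-CNS tumors. Astrocyte markers were higher in most brain tumors too, and the part of neurons or astrocytes in either gene was not tested. Without 29048, R26P115 and R26P170 the log2 fold changes were 6.46 for Lhx1 and 4.36 for Lhx5, both past the threshold.

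Lmx1a, which specifies the roof plate and the dopamine neurons of the midbrain, was on in each brain tumor and in 2 tumors outside the brain. Its gene spans chr1:167689237-167848741 on the plus strand. Its TPM was 4.73 in 29048, 10.6 in 38594A, 5.13 in 29050A, 3.15 in R26P98 and 3.55 in R26P87. The highest level of all was 55.0 TPM in R26P115 (2017 counts), followed outside the brain by 5.32 TPM in 43987A (397 counts), while the other 9 extra-CNS tumors had at most 0.128 TPM. The log2 fold change of -0.74 did not pass (standard error 1.86, edgeR adjusted p = 0.776). Its sign was not stable: without R26P115 it was 2.69 (edgeR adjusted p = 0.112), and with all tumors it was 2.61 by DESeq2 and 1.64 in edgeR with the scheme of the mouse names added. On log2(TPM + 1) it was 1.76 by limma, and on log2(TPM + 0.1) it was 3.86 and past the threshold (limma adjusted p = 0.0215). R26P115 is also the tumor with all 5 choroid plexus markers (Ttr, Folr1, Kl, Clic6 and Kcnj13) at 759 TPM or more, a tissue that arises beside the roof plate, and the part of that tissue in its Lmx1a was not tested. In 43987A these markers summed to 0.606 TPM, with Ttr, Folr1 and Kcnj13 at 0. Among tumors induced at E6, which leave out both R26P115 and 43987A, the log2 fold change was 5.99 (edgeR adjusted p = 0.00532).

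Lmx1b, the paralog of Lmx1a that also patterns the limb and the kidney, had low levels and was lower in brain tumors. Its gene spans chr2:33560965-33640511 on the minus strand. Its TPM was 0.279 in 29048, 0.198 in 38594A, 0.128 in 29050A, 0.727 in R26P98 and 0.726 in R26P87. It ran from 0.398 over a median of 1.74 to 6.31 TPM (R26P170) in the intracranial extra-CNS tumors. In the extracranial tumors it was 1.46 TPM in 43825B, 0.771 in 43987A, 0.419 in 43990A, 0.243 in 43998A and 0.525 in R26P123. The groups overlapped, with R26P170, R26P115 (4.03 TPM) and 43992A (2.63 TPM) highest, and the brain tumors rested on 3 to 8 counts each. The log2 fold change was -2.59 (standard error 0.90, edgeR adjusted p = 0.0360). It lost the call without R26P170 (-2.15, edgeR adjusted p = 0.0538), without 29048, 38594A or 29050A in turn (edgeR adjusted p from 0.0789 to 0.0880) and without R26P115, R26P170 and 29048 together (-1.55, edgeR adjusted p = 0.131). It was also lost against the extracranial tumors alone (-1.24, edgeR adjusted p = 0.197), among the R26P mice (-2.91, edgeR adjusted p = 0.345) and by limma on both scales (-0.69 and -1.36, limma adjusted p = 0.163 and 0.120). Lmx1a was the higher of the pair in the 5 brain tumors and Lmx1b in 9 of the 11 others. The antisense gene C130021I20Rik, which starts 682 bases from Lmx1b on the other strand, was the gene most like it over the 16 tumors (Pearson correlation 0.90), and R26P170 was highest in both.

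Lhx2, which maintains progenitors of the cortex and the eye field, was present in brain tumors and varied over a wide range outside. Its gene spans chr2:38339281-38369733 on the plus strand. Its TPM was 11.1 in 29048, 7.65 in 38594A, 3.60 in 29050A, 8.33 in R26P98 and 6.20 in R26P87. In the intracranial extra-CNS tumors it ran from 0.689 over a median of 3.69 to 13.4 TPM (R26P170), and in the extracranial tumors it was 0.446 in 43825B, 2.43 in 43987A, 0.362 in 43990A, 0.236 in 43998A and 2.44 in R26P123. The brain tumors lay inside the range of the intracranial extra-CNS tumors and above each of the extracranial tumors. Against all 11 extra-CNS tumors the log2 fold change was 0.71 (standard error 0.76, edgeR adjusted p = 0.480). Against the 5 extracranial tumors alone it was 2.14 and past the threshold (edgeR adjusted p = 0.0451), and against the 6 intracranial ones alone it was 0.10 (edgeR adjusted p = 0.928).

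Lhx9, the paralog of Lhx2 that is made in the dorsal thalamus, the pineal gland and the gonad, gave the highest LIM homeobox level in 2 brain tumors. Its gene spans chr1:138825186-138848577 on the minus strand. Its TPM was 25.4 in 29048, 28.3 in 38594A, 3.35 in 29050A, 0.752 in R26P98 and 3.29 in R26P87. The intracranial extra-CNS tumors ran from 0.0414 over a median of 0.587 to 19.8 TPM (29941C), and the extracranial tumors had 0 in 43825B, 0.311 in 43987A, 0.0254 in 43990A, 0.0257 in 43998A and 0.0371 in R26P123. Each brain tumor was above each extracranial tumor. Of the intracranial extra-CNS tumors, 29941C and 43989C (3.48 TPM) were below the 2 high brain tumors and above the other 3. Tumor 43992A (0.755 TPM) was just above R26P98. The log2 fold change was 1.92 (standard error 1.43, edgeR adjusted p = 0.309). Without 29941C it was 3.99 and past the threshold (edgeR adjusted p = 0.0219), without 29048 it was 1.46 (edgeR adjusted p = 0.499), and against the extracranial tumors alone it was 6.61 (edgeR adjusted p = 0.00652). Among tumors induced at E6 it was 8.41 (edgeR adjusted p = 0.0382). With all 16 tumors Lhx9 was past the threshold by limma, at 2.14 on log2(TPM + 1) (limma adjusted p = 0.0356) and 3.78 on log2(TPM + 0.1) (limma adjusted p = 0.0179). The correlation of Lhx2 with Lhx9 was 0.54 over the 16 tumors and 0.32 over the 11 extra-CNS tumors.

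Lhx3 and Lhx4, both needed for the pituitary and for motor neurons, were each on in a single tumor. Lhx3 (chr2:26200212-26208289, minus strand) had 16.6 TPM in R26P170 (496 counts) and at most 0.230 TPM in the other 15 tumors. Lhx4 (chr1:155698031-155751684, minus strand) had 2.40 TPM in 43990A (61 counts) and at most 0.184 TPM, 4 counts, elsewhere. The pair never reached 1 TPM in the same tumor. In R26P170 all 6 pituitary markers reached 1 TPM (Gh 160, Prl 52.1, Pomc 94.7 and Cga 21.0 TPM) and Pitx1, a factor of the early pituitary, was at 10.7 TPM. Tumor 43989C had Gh at 175, Prl at 139 and Pomc at 108 TPM but Cga at 0.527 TPM, and its Lhx3 was 0.153 TPM, 3 counts. The part of pituitary tissue in the Lhx3 of R26P170 was not tested. In 43990A the 6 pituitary markers summed to 1.97 TPM, with Prl, Cga and Tshb at 0. The log2 fold changes of intra-CNS against extra-CNS tumors were -4.15 for Lhx3 (standard error 2.08, edgeR adjusted p = 0.133) and -1.95 for Lhx4 (standard error 1.71, edgeR adjusted p = 0.389). Each rested on its 1 tumor: without R26P170 the value for Lhx3 was 0.51, and without 43990A that for Lhx4 was 2.15, neither past the threshold. Among tumors induced at E6, where R26P170 is one of the 2 extra-CNS tumors, the value for Lhx3 was -6.58 and past the threshold (edgeR adjusted p = 0.0294).

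Ordered by median TPM, the brain tumors had Lhx2 (7.65), Lmx1a (4.73), Lhx1 (4.07), Lhx9 (3.35) and Lhx5 (1.80) at the top, with ranges that overlapped between neighbours in this order. Lhx6 followed at 0.925 TPM, and Lmx1b, Lhx8, Lhx3 and Lhx4 had medians of 0.279 TPM or less. The intracranial extra-CNS tumors had Lhx8 (39.4), Lhx6 (3.82), Lhx2 (3.69) and Lmx1b (1.74) above 1 TPM. In the extracranial tumors only Lhx8 (60.8) and Lhx6 (1.09) had medians above 1 TPM.

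**Figure D5:**
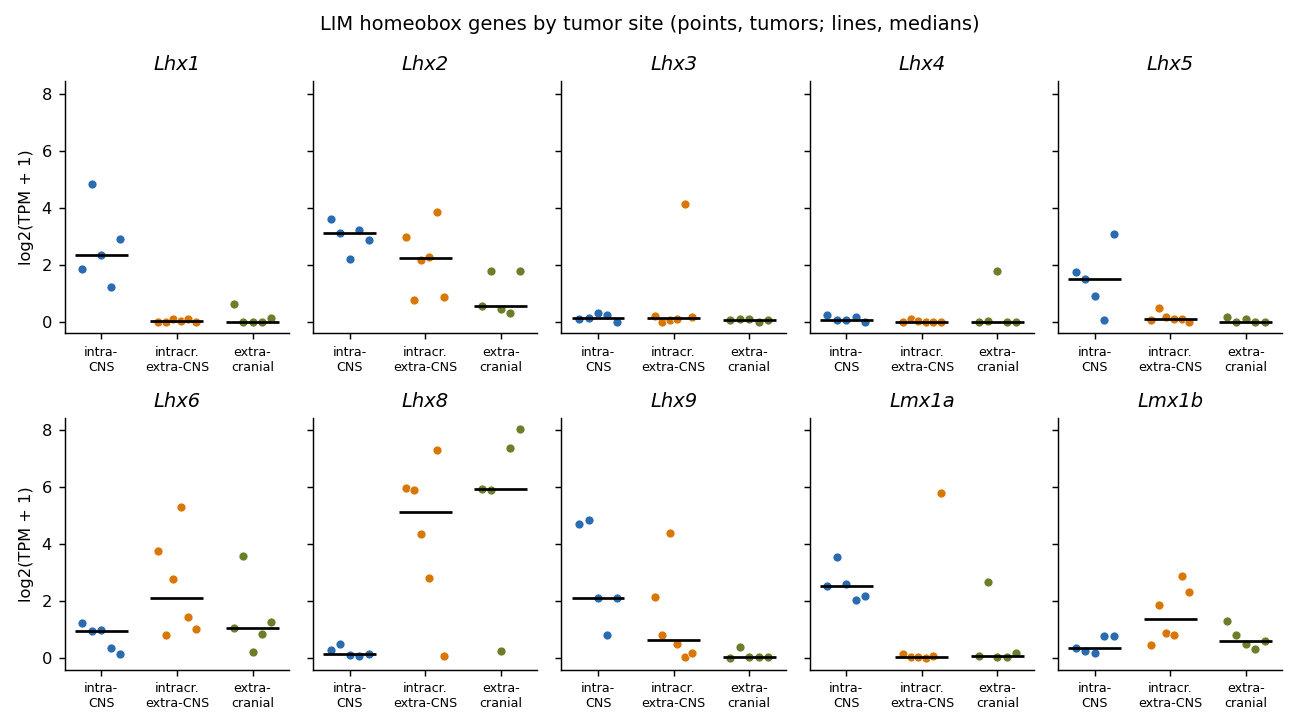
Level of each of the 10 genes as log2(TPM + 1) in the 3 site groups, with 1 point per tumor and a line at the median of each group. Lhx1 separates the brain tumors from both other groups, Lhx8 is high in all but 2 tumors outside the brain, and Lhx3, Lhx4 and Lmx1a each show single high tumors.

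The second comparison set the 6 intracranial against the 5 extracranial tumors outside the CNS and asked whether these genes follow the skull boundary. None of the 10 genes passed by edgeR (adjusted p from 0.346 to 0.757), as for all but 1 of 21261 genes tested (0.00470%). At an unadjusted p under 0.05 edgeR counted 2606 genes, among them Lhx2, Lhx3, Lhx4, Lhx9 and Lmx1b. DESeq2 called 490 genes (2.30%) and Lhx9 among them, where its log2 fold change came to 5.64 (DESeq2 adjusted p = 0.00383). The edgeR value for Lhx9 was 5.58 (standard error 1.78, adjusted p = 0.346), and 29941C held 80.4% of the summed TPM of the intracranial tumors. For Lhx8, the gene that led most of these tumors, the log2 fold change was -1.10 (standard error 1.36, edgeR adjusted p = 0.757), with 1 tumor near the floor on each side.

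The partners of LIM domains were present at both sites, apart from Lmo3. Ldb1, the main adaptor, was at 114 to 321 TPM in intra-CNS and 86.8 to 250 TPM in extra-CNS tumors, and its log2 fold change was -0.25 (standard error 0.25, edgeR adjusted p = 0.456). Its paralog Ldb2 was at 2.64 to 13.8 TPM and 1.52 to 10.6 TPM, and its log2 fold change was 0.47 (standard error 0.43, edgeR adjusted p = 0.403). Of the 6 adaptor genes listed, 1 passed, where 13.1% of all genes were lower and 12.9% higher. It was Ssbp4, a partner of Ldb1, which was lower in brain tumors, at 42.8 to 120 TPM against 118 to 286 TPM (log2 fold change -1.51, standard error 0.27, edgeR adjusted p = 0.000545). Of the 4 LIM-only genes 1, Lmo3, a gene linked to neuroblastoma, passed: it was at 8.36 to 140 TPM in brain tumors and at most 0.465 TPM elsewhere (log2 fold change 8.62, standard error 0.94, edgeR adjusted p = 1.22e-05). Lmo1, Lmo2 and Lmo4 had log2 fold changes of 0.82, 0.57 and 0.18 (standard errors 0.54, 0.44 and 0.30) and were expressed at both sites, Lmo4 at 43.6 to 88.0 TPM in brain tumors and 15.9 to 93.5 TPM elsewhere. The remaining LIM homeodomain genes, Isl1 and Isl2 of motor and sensory neurons, did not pass, with log2 fold changes of -0.32 (standard error 1.51) and -1.85 (standard error 1.34). Isl1 varied widely at both sites, from 0.526 to 37.9 TPM in brain tumors and from 0.0289 to 63.4 TPM outside.

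The genes that work beside these factors in development were read as counts in each direction. Of 10 genes of the interneuron program around Lhx6 and Lhx8, 4 were higher and 2 lower in brain tumors, where Lhx6 and Lhx8 themselves were lower. Over all genes tested the shares were 12.9% higher and 13.1% lower. Nkx2-1, which switches on Lhx6 and Lhx8 in the ventral forebrain, was at 0.620 to 22.8 TPM in brain tumors and at most 0.560 TPM outside (log2 fold change 6.82, standard error 1.15, edgeR adjusted p = 0.000344). Sox6, which acts in the same interneurons, was higher in brain tumors too, at 7.86 to 17.1 TPM against at most 1.14 TPM (log2 fold change 4.76, standard error 0.71, edgeR adjusted p = 0.000127). Of 11 genes of oral and branchial arch mesenchyme 1 was higher in brain tumors, Hand2, at 84.1 to 439 TPM against 0 to 75.8 TPM (log2 fold change 3.94, standard error 1.32, edgeR adjusted p = 0.0302), and none was lower. The call of Hand2 was lost in 6 of 29 alternatives, among them without 29050A (edgeR adjusted p = 0.0534) or R26P98 (edgeR adjusted p = 0.0712) and among E6 tumors (1.87, edgeR adjusted p = 0.279). The median log2 fold changes of these lists were 1.36 and 0.60, against -0.15 over all genes.

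Of 10 genes of the midbrain and roof plate program around Lmx1a and Lmx1b, 2 were higher and 1 lower in brain tumors, near the shares of 12.9% and 13.1% over all genes. Foxa2 and Foxa1, partners of Lmx1a in dopamine neurons, were higher, with log2 fold changes of 5.57 (standard error 1.08) and 4.35 (standard error 0.95). Both calls were lost among tumors induced at E6 and among the R26P mice, as were those of Nkx2-1 above and Olig2 below. Nr4a2, a later factor of dopamine neurons that also responds to acute stimuli in many cells, was lower (-2.87, standard error 0.83, edgeR adjusted p = 0.0145), but not by limma on either scale (limma adjusted p = 0.0652 and 0.0591) or among E6 tumors (-0.91, edgeR adjusted p = 0.365). Of 8 genes of the inhibitory neuron program around Lhx1 and Lhx5, 3 were higher. Gad2, an enzyme of GABA synthesis, was the one of these with a mean count of at least 50. It was at 7.89 to 195 TPM against 0 to 17.3 TPM (log2 fold change 4.19, standard error 1.30, edgeR adjusted p = 0.0203). Gad1, also an enzyme of GABA synthesis, did not pass (log2 fold change 0.75, standard error 1.36, edgeR adjusted p = 0.688). It was at 0.948 to 246 TPM in brain tumors and 0.197 to 174 TPM elsewhere. The call of Gad2 was lost in 5 of 29 alternatives, among them without 38594A (3.41, edgeR adjusted p = 0.0734), among E6 tumors (4.65, edgeR adjusted p = 0.191) and without R26P115, R26P170 and 29048 (3.80, edgeR adjusted p = 0.0586). For the pituitary and motor neuron program 2 of 7 genes tested were higher, among them Olig2 (5.20, standard error 1.08; 4.11 without 29048, edgeR adjusted p = 0.0104), and for the forebrain and eye program around Lhx2 and Lhx9 2 of 8 were. Each of these counts of higher genes stands against 12.9% over all genes. The medians of these 4 lists were 0.31, 1.02, -0.70 and 1.90. In the comparison of intracranial with extracranial tumors 0 genes of any of these 9 lists passed.

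For each member the genes most like it were picked for the highest correlation with it. Where 1 tumor holds most of a member's level, that tumor largely sets the correlation. A shared highest tumor then follows from the choice and is no separate result. For Lhx1 the genes were Slc18a2, Foxa2 and Lrrcc1 over the 16 tumors (Pearson correlations 0.96, 0.95 and 0.95), each highest in 38594A as Lhx1 was. For Lhx5 they were Wnt7a, Nhlh1 and Glp1r (0.96, 0.93 and 0.93), each highest in R26P87. For Lhx3 they were Sftpd, a surfactant protein, and Bpifb1 and Bpifb4, of a family of secreted airway proteins (each above 0.98), all highest in R26P170. Those for Lmx1a were Sostdc1, Klhdc8b and Spag8 (0.94, 0.93 and 0.92), each highest in R26P115. For Lhx2 (Fndc4, Extl3 and Klhl13, 0.86 to 0.89), Lhx6 (Fam110c, Synpo and Gata6, 0.86 to 0.88) and Lhx9 (Col25a1, Ncoa7 and Kcna4, 0.91 to 0.93) the correlations were lower. After AI606473, the genes most like Lhx8 were 3300005D01Rik and Ppp1r13l (0.97 and 0.96). Over the 11 extra-CNS tumors the leading genes were others for Lhx2, Lhx6, Lhx9 and Lmx1a (Elavl4, Scrt2, Col24a1 and Gabrb1), and the same for Lhx3 and Lhx8. Those of Lhx1 and Lhx5 over these tumors are left out, since 8 of the 11 were at or under the floor for either gene. Lhx3 and Lmx1a were each at or under the floor in 7 of the 11. R26P170 held 96.6% of the summed TPM of Lhx3 there and R26P115 90.5% of that of Lmx1a, so that 1 tumor largely sets each of these correlations. For Lmx1b the leading gene was Smim14 (0.97) there, followed by C130021I20Rik (0.93). These are descriptions over 16 or 11 libraries that differ in depth, site and tissue.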

How the data were processed

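Polyadenylated RNA of 16 mouse rhabdoid tumors was sequenced in stranded paired-end libraries. The authors mapped reads to mm10 (GRCm38) with STAR 2.5.3a and deposited raw counts per gene, whole numbers without normalization. They also deposited TPM values of the same tumors, scaled by transcript length and library size. The annotation and strand setting of the counting were not given in the sources used here.

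Groups followed the labelled tumor site. Counts were tested with edgeR 4.0.16 (TMM, glmQLFit and glmQLFTest) in R 4.3.3 over all genes with any count, 21854 for intra-CNS against extra-CNS tumors (all 16) and 21261 for intracranial against extracranial tumors (the 11 outside the CNS alone), with Benjamini-Hochberg adjustment over all genes. To pass, a gene needed an adjusted p under 0.05 and a log2 fold change above 1 or below -1. The code was tested on simulated counts of both designs. Levels are TPM, and a count of 3 was the floor, for counting error only. Total counts ranged from 17889968 to 110177889.

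The members and lists were chosen with earlier results of these data known. Named were all 10 members, up to 3 genes past the threshold per list with the largest fold change and a mean count of at least 50, the cofactors Ldb1, Ldb2, Lmo1, Lmo2, Lmo3, Lmo4, Isl1 and Isl2, and, for each member reaching 5 TPM in a tumor, the 3 genes with the highest Pearson correlation of log2(TPM + 1) over 16 and over 11 tumors. Lhx1os and Gad1 were named after their values were seen. A gene of the interneuron list that the rule names is not reported here. Gene positions came here from GENCODE release M21 and promoter windows from RefSeq (GRCm38.p6). Alternatives were DESeq2 1.42.0, limma 3.58.1 on log2(TPM + 1) and log2(TPM + 0.1), DESeq2 size factors, filterByExpr, the adjusted p alone, mouse name scheme (numbered or R26P) as a covariate, subsets by induction day, site and name scheme, 43990A as intracranial, and the omission of single tumors. The omission of tumors with markers of other tissue was added after the data were seen. Python 3.11.15 with numpy 2.4.6, pandas 2.3.3 and matplotlib 3.10.9 was used for tables and figures.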

Additional observations from a re-analysis of the deposited data

Results flagged for a closer look

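Within each site group the highest and the lowest log2(TPM + 1) of each gene were set against the rest of the group by the ratio of their gap to the group's range, in 30 sets of 5 or 6 tumors. Single tumors stood apart in 9 of the 30. The cutoff flags about 1 in 20 sets of normally distributed values. Levels at or near the floor are not so distributed, so the 9 cannot be set against a chance rate. The value was high on few counts for Lhx1 in 43825B (0.530 TPM, 21 counts, against at most 0.0855 TPM in the other extracranial tumors), Lhx5 in 43992A (0.376 TPM, 9 counts) and Lhx4 in 43992A (0.0617 TPM, 1 count, under the floor). For Lhx9 in 43987A it was 0.311 TPM, 40 counts, against at most 0.0371 TPM.

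Larger levels set apart Lmx1a in R26P115 (55.0 TPM) and in 43987A (5.32 TPM), Lhx3 in R26P170 (16.6 TPM) and Lhx4 in 43990A (2.40 TPM). Tumor 43990A was also apart at the low end, with 0.185 TPM of Lhx8 against 58.9 to 262 TPM in the other extracranial tumors. The labels place this tumor in the nose, and the study's list of mice has it as intracranial outside the CNS.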

How the results depend on the processing

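No paired analysis was possible because no mouse contributed tumors to more than 1 group and replicate numbers only name the tumors. For intra-CNS against extra-CNS tumors the genes called by edgeR fell from 5689 to 3533 among tumors induced at E6 and to 0 among the R26P mice (2 against 3 tumors, 3514 genes and 5 members at an unadjusted p under 0.05). Members called higher were 4 in place of 2 with limma on log2(TPM + 0.1) and against extracranial tumors alone, and 0 among R26P mice. Members called lower were 1 in place of 3 with limma on either scale and against extracranial tumors alone, 0 among R26P mice, and 1 without 38594A or 29050A (the range over single tumors left out was 1 to 3). Lhx8 kept its call in 28 of 29 alternatives (log2 fold changes from -11.07 to -4.68), Lhx1 and Lhx5 in 27 (2.54 to 7.73 and 1.36 to 6.75), Lmx1b in 20 (-3.80 to -0.69) and Lhx6 in 19 (-4.23 to -1.27), with no change of sign. Of the other genes named as past the threshold, Nkx2-1, Foxa1, Foxa2 and Olig2 lost the call among E6 tumors (edgeR adjusted p from 0.0671 to 0.181) and, with all others named, among R26P mice.

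For intracranial against extracranial tumors DESeq2 called 490 genes and 1 member, limma on log2(TPM + 0.1) 2 genes, and edgeR 0 genes among E8 tumors (1665 at an unadjusted p under 0.05) and without R26P115 and R26P170 (1944), and 0 to 3 genes with single tumors left out.

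Among the members and cofactors, signs turned only for genes that were not past the threshold as reported. For intra-CNS against extra-CNS tumors, DESeq2 gave log2 fold changes of 0.62 for Lhx3, 2.27 for Lhx4 and 2.61 for Lmx1a. Limma on log2(TPM + 1) gave 1.76 for Lmx1a, 0.26 for Ldb1 and 1.22 for Isl1, and on log2(TPM + 0.1) 3.86 for Lmx1a (past the threshold), 0.21 for Lhx4, 0.26 for Ldb1 and 2.15 for Isl1. With the name scheme as a covariate Lmx1a was at 1.64 and Isl1 at 0.32. Among E6 tumors the values were -0.46 for Lhx2, 3.84 for Lhx4, 5.99 for Lmx1a (past the threshold), -0.34 for Lmo2 and 1.80 for Isl1. Among R26P mice they were -0.14 for Lhx2, 3.14 for Lhx4, -0.34 for Ldb2, -0.48 for Lmo1, -0.086 for Lmo4 and 1.51 for Isl1. Numbered mice alone gave 0.74 for Lhx3 and 2.66 for Lmx1a, intracranial tumors alone 2.08 for Lhx4 and -0.018 for Lmo4, and extracranial tumors alone 0.95 for Lhx3, 1.74 for Lmx1a and 0.30 for Isl2. Without R26P115, R26P170 and 29048 Lhx3 was at 0.85 and Lmx1a at 2.60. Left out singly, R26P170 turned Lhx3 to 0.51 (range over all single omissions -4.56 to 0.51), 43990A turned Lhx4 to 2.15 (-2.51 to 2.15), R26P115 turned Lmx1a to 2.69 (-1.12 to 2.69), and 43998A and 29941C turned Isl1 to 0.19 and 0.38 (-1.04 to 0.38). For intracranial against extracranial tumors Lhx1 turned to 0.17 among E8 tumors and 0.46 without 43825B (range over single omissions -2.61 to 0.46), Lhx4 to 4.85 with 43990A as intracranial and 0.23 without it (-5.93 to 0.23), and Lmx1a to -4.14 with the covariate, -4.71 without R26P115 (-4.71 to 7.45) and -4.77 without R26P115 and R26P170. Apart from the tumors named as left out, the cause was not tested. Low counts limit Lhx4, at or under the floor in 10 of 11 extra-CNS and 4 of 5 intra-CNS tumors. They also limit Lmx1b, at 3 to 8 counts in the intra-CNS tumors.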
